A study of Mus musculus with 18 samples.

Results

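The telomeric end of the chromosome 16 duplication carried by the Dp16 mouse was examined in whole kidney. The 32 genes were taken by name on chromosome 16 of the count table as the genes of the duplicated segment that lie beyond the interferon receptor cluster, towards the telomere, out of 55385 genes in all. They span 6.39 Mb (GRCm38), chr16:91574503-97962598, from Tmem50b to C2cd2, and 28 of the 32 passed the filter on low counts. Whole kidneys of adult mice were profiled by polyA RNA sequencing, with 6 animals a group. Dp16 mice carry an extra copy of the segment from Lipi to Zbtb21 and are a model of trisomy 21. Dp16 2xIFNRs mice carry that duplication too, but the interferon receptor genes inside it are back at their usual copy number, and wild-type mice were C57BL/6J. Each group held 3 males and 3 females, aged 17.1 to 18.0 weeks, with no treatment, and the duplication is in every cell of the animal rather than in a chosen cell type.

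An extra copy of a chromosome segment adds a template for every gene on it, and the RNA of a gene can follow the copy number or depart from it. In trisomy 21 most expressed genes of the extra chromosome are known to rise with copy number, and some are known to depart from it. The distal genes encode unrelated proteins, among them carbonyl reductases, potassium channel subunits, chromatin proteins, a nuclear speckle scaffold and a membrane serine protease.

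The bases before the start of 3 of the genes are printed here, Cbr1 and Cbr3 for their extreme values in what follows and Tmprss2 to be set beside them. Cbr1 and Cbr3, neighbouring carbonyl reductases on the same strand, had the largest sex difference by size and the largest rise with the duplication, and Tmprss2 had a rise with a narrow interval and no called sex difference. Each sequence is 5′ to 3′ on the gene's strand and ends at the base before the RefSeq start (GRCm38.p6). The Cbr1 window lies inside the gene by GENCODE, which starts Cbr1 1734 bases before the window, and overlaps none of its GENCODE exons. The windows are chr16:93607587-93607836 on the plus strand for Cbr1, chr16:93682969-93683218 on the plus strand for Cbr3, and chr16:97611196-97611445 on the minus strand for Tmprss2. Capitals mark the NRF1 element GCGCATGCG, which was found in the Cbr1 window and in neither of the other windows shown.
Cbr1: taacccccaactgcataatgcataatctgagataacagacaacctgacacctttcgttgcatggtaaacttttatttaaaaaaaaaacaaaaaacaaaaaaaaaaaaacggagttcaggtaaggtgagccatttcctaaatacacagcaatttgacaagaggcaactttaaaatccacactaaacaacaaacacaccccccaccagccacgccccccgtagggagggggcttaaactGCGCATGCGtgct
Cbr3: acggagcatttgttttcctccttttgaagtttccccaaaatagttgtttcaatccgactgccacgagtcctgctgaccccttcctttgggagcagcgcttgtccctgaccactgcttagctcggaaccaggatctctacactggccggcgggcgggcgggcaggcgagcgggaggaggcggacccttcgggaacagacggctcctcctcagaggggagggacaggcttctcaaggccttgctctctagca
Tmprss2: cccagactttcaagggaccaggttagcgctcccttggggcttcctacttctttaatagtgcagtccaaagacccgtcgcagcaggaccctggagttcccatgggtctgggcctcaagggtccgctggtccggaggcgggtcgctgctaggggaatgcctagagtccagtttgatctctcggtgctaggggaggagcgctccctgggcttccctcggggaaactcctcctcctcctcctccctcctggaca
The Cbr1 window held 41.6% G and C and 6 CpG pairs, the Cbr3 window 59.6% and 14, and the Tmprss2 window 61.6% and 10, against a median of 52.4% G and C over all 32851 RefSeq windows of 250 bases. Of the 32 genes 26 had a window, some of them more than one, with 34 windows in all. Both strands were searched for 4 motifs, none of which is contained in another. GCGCATGCG was in 6 of the 34 windows of these genes (Cbr1, Lca5l, Morc3, Pigp and Ttc3) and in 1.45% of all windows. The core of the antioxidant response element, TGACNNNGC, was in 7 of the 34 windows (B3galt5, Dnajc28, Itsn1, Kcne2, Kcnj6 and Lca5l) and in 10.2% of all windows. The STAT element TTCNNNGAA was in 3 of the 34 (B3galt5, C2cd2 and Psmg1) and in 7.02% of all, and the full palindrome of the androgen and glucocorticoid response element was in 0 of the 34 and in 0.00913% of all. The motifs were chosen after the sequences had been seen, and a match describes letters only.

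Library totals ranged from 42157790 to 57814587 counts, and mitochondrial genes took 6.34% to 10.88% of them. Markers of the proximal tubule summed to 14250 to 38810 CPM (counts scaled to library size) over the 18 libraries and markers of the loop of Henle to 4392 to 6793 CPM. Ifnar2, one of the receptor genes that separate the groups, averaged 51.0 CPM in Dp16, 33.6 CPM in Dp16 2xIFNRs and 29.2 CPM in wild-type kidneys. The 9 macrophage markers summed to 266.9 to 331.9 CPM in Dp16, 251.0 to 336.9 CPM in Dp16 2xIFNRs and 171.4 to 243.7 CPM in wild-type kidneys. Of these 9 markers 8 passed as higher in Dp16 and 7 in Dp16 2xIFNRs, none as lower, and none was at 0 in all libraries. The 9 lymphocyte markers summed to 10.2 to 22.0 CPM in Dp16, 9.67 to 13.6 CPM in Dp16 2xIFNRs and 5.45 to 10.5 CPM in wild-type kidneys, with 4 and 2 of them passing as higher. Their part in the results below was not tested, and in whole tissue more cells of a type and more RNA per cell cannot be told apart. Markers of the adrenal cortex summed to 81.4 CPM in wild-type 5 and to 9.96 CPM or less in the other 17 libraries, so counts of calls are also given without wild-type 5.

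Most of the distal genes were higher in both duplication groups, by somewhat less than 3:2 at the median. In Dp16 against wild-type kidneys 21 of the 28 tested genes rose and 0 fell (edgeR quasi-likelihood test, Benjamini-Hochberg adjusted p under 0.05 over 17575 genes), where 3.17% of all genes tested rose and 1.06% fell. In Dp16 2xIFNRs against wild-type kidneys 21 of 28 rose and 0 fell, against 3.17% and 1.61% of all genes. The unadjusted p was under 0.05 for 24 and 23 of the 28 in these comparisons, and for 3004 and 3196 of all 17575 genes. Without wild-type 5 the counts of called genes that rose were 22 and 21, and the shares of all genes in that fit are not given here. Without a term for sex in the fit they were 12 and 15, where 0.979% and 1.09% of all genes rose. The median log2 fold of the 28 genes was 0.50 in Dp16 (1.42-fold; quartiles 0.43 and 0.67) and 0.50 in Dp16 2xIFNRs (1.42-fold; quartiles 0.44 and 0.58). Over all tested genes the medians were -0.01 and 0.01, over the 433 tested genes of chromosome 16 outside the segment -0.01 and 0.02, and over the 83 other tested genes of the segment 0.52 and 0.56. Both comparisons share the wild-type libraries, so their values for a gene are not independent.

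**Figure D1:**
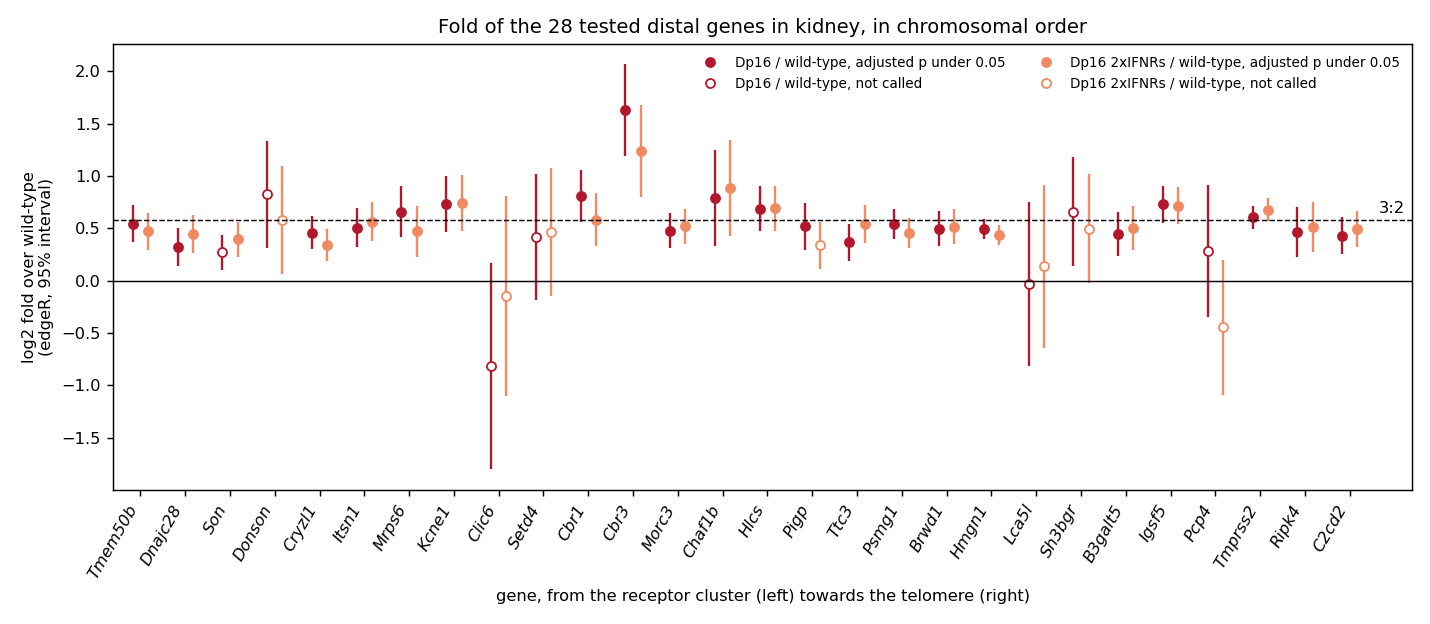
Log2 fold over wild-type of each of the 28 tested genes in chromosomal order, for Dp16 (dark) and Dp16 2xIFNRs (light), with 95% intervals from the edgeR fit; filled points passed an adjusted p of 0.05, the dashed line is 3:2. Most points lie between 0 and 1, Cbr3 stands above the 3:2 line in both groups, and the widest intervals, such as those of Clic6 and Lca5l, belong to open points.

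With both duplication groups in 1 comparison, 22 of the 28 genes rose and 0 fell, against 5.01% and 2.37% of all genes. The unadjusted p was under 0.05 for 24 of the 28 and for 3564 of all 17575 genes. The 95% interval of the fold could then be read against 3:2, which is 0.585 on the log2 scale. It included 3:2 in 21 genes, 2 of which (Setd4 and Lca5l) also included no change. It lay below 3:2 in 6 genes, namely Dnajc28, Son, Cryzl1, Hmgn1, Clic6 and Pcp4, and the intervals of Clic6 and Pcp4 also included no change. It lay above 3:2 in Cbr3 alone among the 28. The 6 genes that did not pass were the 6 of lowest level, with average log2 CPM of -1.17 to 1.01 and interval half-widths of 0.45 to 0.82, while the 22 that passed had 1.28 to 8.27 and 0.08 to 0.41. A miss in those 6 genes therefore does not show an unchanged level.

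**Figure D2:**
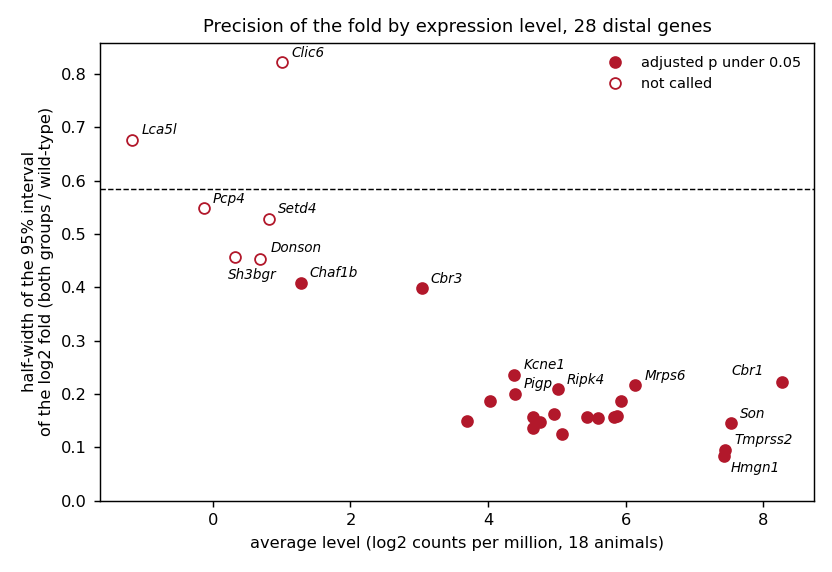
Half-width of the 95% interval of the log2 fold (both duplication groups over wild-type) against average level in log2 CPM over 18 animals, 1 point a gene. The 6 open points, which did not pass, are the 6 lowest in level and have half-widths of 0.45 or more; the dashed line marks the size of a 3:2 change.

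The rise was also read animal by animal. Each animal's median log2 ratio over the 28 genes, taken to the wild-type mean of its sex, was 0.42 to 0.62 in Dp16 and 0.44 to 0.55 in Dp16 2xIFNRs, against -0.07 to 0.06 in wild-type animals. Each wild-type animal is part of its own reference mean, which by itself draws the wild-type medians towards 0. In CPM, every Dp16 animal was above every wild-type animal in 8 of the 28 genes, where 1.06% of all tested genes were so. For Dp16 2xIFNRs this held in 11 of 28, against 1.04% of all. All 12 animals with the duplication were above all 6 wild-type animals in 6 of 28, against 0.518% of all, namely Hlcs, Hmgn1, Morc3, Psmg1, Tmem50b and Tmprss2. They were below in 0 of 28, against 0.0853% of all.

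**Figure D3:**
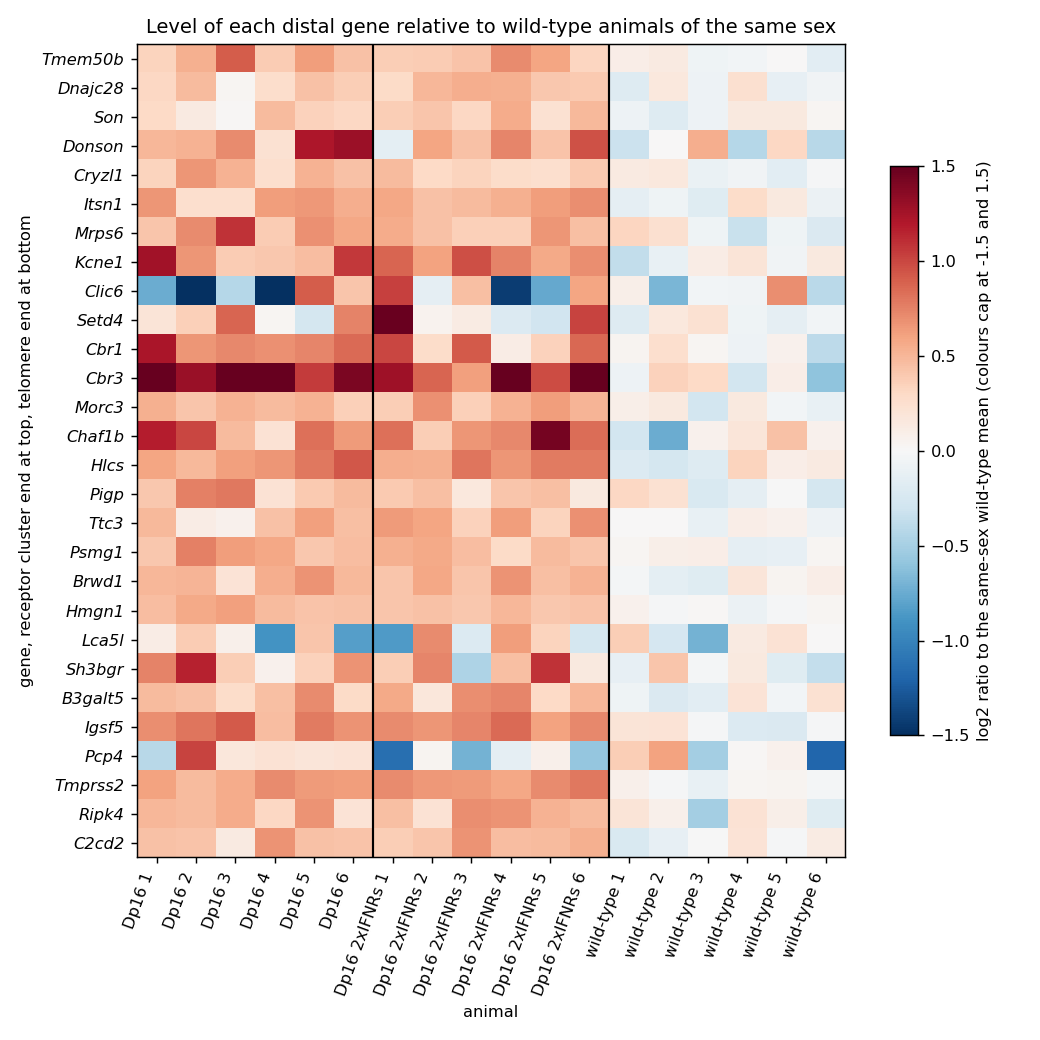
Log2 ratio of each tested gene in each animal to the wild-type mean of the same sex (0.1 CPM added to both), with Dp16 at left, Dp16 2xIFNRs in the middle and wild-type at right; red is higher, blue lower. The median of a column is 0.42 to 0.62 in Dp16, 0.44 to 0.55 in Dp16 2xIFNRs and -0.07 to 0.06 in wild-type animals, which are part of their own reference mean. Clic6, Lca5l and Pcp4 change colour between animals of 1 group.

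Levels per transcript length spanned a wide range. In wild-type kidneys the deposited RPKM (reads scaled to gene length and library size) was highest for Cbr1, at 197 ± 188 (SD, n = 6), where females averaged 363 and males 32.2 (n = 3 each). In males alone Hmgn1 (60.9), Mrps6 (54.6) and Tmprss2 (36.6) stood above Cbr1. Over both sexes Hmgn1 followed at 62.2 ± 3.0, Mrps6 at 62.0 ± 13.6, Tmprss2 at 39.7 ± 3.8, Psmg1 at 24.9 ± 1.8, Tmem50b at 19.1 ± 2.0 and Son at 13.9 ± 1.5. From Mrps6 down to Son each neighbour stood apart from the next by more than the sum of their SDs, while Cbr1, Hmgn1 and Mrps6 did not, nor did neighbours in the order from Son to Donson. Donson, at 0.468 RPKM, stood apart from Lca5l, at 0.120 RPKM.

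Of the 5 epithelial genes 4 rose in both duplication groups and Fam3b was under the filter. Tmprss2, a membrane serine protease of epithelia, had 182, 191 and 215 CPM (lowest, median and highest) in Dp16, 191, 203 and 214 CPM in Dp16 2xIFNRs and 114, 129 and 135 CPM in wild-type kidneys. No wild-type animal reached the lowest animal of either duplication group. Its log2 fold was 0.61 ± 0.05 (SE; adjusted p 1.65e-06) in Dp16 and 0.68 ± 0.05 (adjusted p 3.93e-07) in Dp16 2xIFNRs, with 6 animals a group. Igsf5, a tight junction protein of the immunoglobulin superfamily, rose by 0.73 ± 0.09 and 0.72 ± 0.09 on the log2 scale, with 37.4 to 57.3 CPM in Dp16, 41.0 to 55.6 CPM in Dp16 2xIFNRs and 23.2 to 38.4 CPM in wild-type kidneys, so that single animals overlapped. A gene of the same name overlaps 31.2% of its exonic bases on the same strand, which makes its count uncertain. B3galt5, a galactosyltransferase that builds glycan chains, rose by 0.45 ± 0.10 and 0.51 ± 0.10. Ripk4, a kinase of keratinocyte differentiation, rose by 0.46 ± 0.11 and 0.51 ± 0.11, and its call in Dp16 was lost without Dp16 1, 3 or 5 or wild-type 6 (adjusted p 0.053 to 0.063). That call was also lost without a sex term and with the 2 groups alone, with adjusted p up to 0.12 over all alternatives. Fam3b, a secreted cytokine-like protein of pancreatic islets, stayed under the filter with 19 counts in Dp16, 26 in Dp16 2xIFNRs and 6 in wild-type kidneys.

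Of the 4 channel genes Kcne1 passed, Clic6 did not, and the other two were under the filter. Kcne1, a beta subunit of the potassium channel Kcnq1, had 17.2, 24.0 and 30.0 CPM (lowest, median and highest) in Dp16, 20.3, 24.5 and 27.7 CPM in Dp16 2xIFNRs and 9.64, 14.8 and 18.3 CPM in wild-type kidneys. All Dp16 2xIFNRs animals were above all wild-type animals, and the lowest Dp16 animal lay within the wild-type range. The log2 folds were 0.73 ± 0.13 (adjusted p 0.00236) and 0.74 ± 0.13 (adjusted p 0.00183). Kcne2, a related beta subunit, had 0 counts in Dp16, 4 in Dp16 2xIFNRs and 7 in wild-type kidneys, the last in 1 library. Kcnj6, a G protein-gated inward rectifier known from neurons, had 0 counts in all 18 libraries, which allows up to 0.00323 CPM over them, counting error only. Clic6, of the chloride intracellular channel family, did not pass between genotypes, with log2 folds of -0.81 ± 0.47 (adjusted p 0.42) and -0.15 ± 0.46 (adjusted p 0.91), and its level is given with the sex differences.

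Of the 3 oxidoreductases Cbr3 had the largest rise of all 28 genes. Cbr3, which reduces carbonyl groups with NADPH, had 5.47, 3.6 and 4.67 CPM in Dp16 males, 4.21, 2.64 and 5.74 CPM in Dp16 2xIFNRs males and 1.59, 2.1 and 1.38 CPM in wild-type males. In females it had 14.2, 19.8 and 25.4 CPM in Dp16, 10.6, 16.6 and 11.4 CPM in Dp16 2xIFNRs and 7.34, 6.14 and 3.74 CPM in wild-type animals. Within each sex all animals with the duplication were above all wild-type animals. The log2 fold was 1.63 ± 0.21 (3.09-fold; adjusted p 1.48e-04) in Dp16 and 1.24 ± 0.21 (2.36-fold; adjusted p 0.00177) in Dp16 2xIFNRs, and Dp16 2xIFNRs against Dp16 did not pass (-0.39 ± 0.20, adjusted p 0.85). Cbr1, the better known carbonyl reductase, which acts on prostaglandins and anthracyclines, rose by 0.81 ± 0.12 (adjusted p 5.28e-04) in Dp16 and 0.59 ± 0.12 (adjusted p 0.00734) in Dp16 2xIFNRs; its values by animal stand with the sex differences. Without a term for sex neither gene passed in either comparison (adjusted p 0.17 to 0.94). The longest run shared by their transcripts of 1237 and 1170 bases was 50 bases, against reads of 150 bases. Cryzl1, related to quinone reductases, had 24.1, 26.8 and 35.0 CPM (lowest, median and highest) in Dp16, 24.0, 26.5 and 27.3 CPM in Dp16 2xIFNRs and 17.8, 20.4 and 24.7 CPM in wild-type kidneys. The top of the wild-type range reached into both others, and the log2 folds were 0.46 ± 0.07 (adjusted p 0.00118) and 0.34 ± 0.07 (adjusted p 0.0106).

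Among the nuclear genes the size of the rise was most precise in Hmgn1 and smallest in Son. Hmgn1, a nucleosome-binding protein, had 187, 192 and 205 CPM (lowest, median and highest) in Dp16, 177, 188 and 190 CPM in Dp16 2xIFNRs and 132, 135 and 148 CPM in wild-type kidneys, with no overlap between the duplication groups and wild-type. Its log2 folds were 0.50 ± 0.05 and 0.43 ± 0.05 (adjusted p 2.84e-06 and 1.32e-05). Son, a scaffold of nuclear speckles needed for splicing, had 160, 194 and 218 CPM in Dp16, 184, 206 and 232 CPM in Dp16 2xIFNRs and 137, 155 and 175 CPM in wild-type kidneys. All Dp16 2xIFNRs animals lay above wild-type, and 2 Dp16 animals lay within the wild-type range. Son rose in Dp16 2xIFNRs (0.40 ± 0.08, adjusted p 0.00626) and just missed in Dp16 (0.27 ± 0.08, adjusted p 0.0585), where DESeq2 gave 0.023 and where the call appeared without Dp16 2, Dp16 3 or wild-type 5 (adjusted p 0.027 to 0.048). The difference between Dp16 2xIFNRs and Dp16 in Son did not pass (0.13 ± 0.08, adjusted p 0.85). Brwd1, a bromodomain chromatin reader, rose by 0.50 ± 0.08 in Dp16 and 0.52 ± 0.08 in Dp16 2xIFNRs. Morc3, a nuclear ATPase of PML bodies, rose by 0.48 ± 0.08 and 0.52 ± 0.08.

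The genes of replication and histone deposition were low in adult kidney. Chaf1b, a subunit of the histone chaperone CAF-1, had 2.04, 2.48 and 3.81 CPM (lowest, median and highest) in Dp16, 2.08, 2.40 and 5.16 CPM in Dp16 2xIFNRs and 1.04, 1.40 and 2.55 CPM in wild-type kidneys. The highest wild-type animal lay above the median of both duplication groups. Chaf1b rose by 0.79 ± 0.22 (adjusted p 0.0472) and 0.89 ± 0.22 (adjusted p 0.0234), but the call in Dp16 was lost in 18 of 28 alternatives, 14 of them with 1 library left out. In Dp16 2xIFNRs it was lost in 4 of 28, namely without a sex term and without Dp16 2xIFNRs 5 (log2 fold 0.70), wild-type 1 (0.82) or wild-type 2 (0.77). Donson, a factor of replisome assembly, had 1.23, 2.06 and 2.32 CPM in Dp16, 0.747, 1.81 and 2.37 CPM in Dp16 2xIFNRs and 0.596, 1.14 and 1.74 CPM in wild-type kidneys, and the groups overlapped. Its log2 folds were 0.83 ± 0.25 (adjusted p 0.0612) and 0.58 ± 0.25 (adjusted p 0.20), and with both groups together 0.70 ± 0.22 (adjusted p 0.0539). The joint comparison passed in DESeq2 (adjusted p 0.0171), in limma on RPKM, with age, a replicate block or a number from the labels' descriptions in the fit, and without Dp16 4, Dp16 2xIFNRs 1, wild-type 3 or wild-type 5. Donson overlaps 9.2% of its exonic bases with Atp5o on the same strand. Setd4, a protein lysine methyltransferase, did not pass, at 0.42 ± 0.29 (adjusted p 0.51) and 0.46 ± 0.29 (adjusted p 0.43).

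All 6 genes of organelles and protein turnover rose in Dp16, and Pigp alone among them did not pass in Dp16 2xIFNRs. Psmg1, a chaperone of proteasome assembly, had 36.8 to 42.5 CPM in Dp16, 30.7 to 40.1 CPM in Dp16 2xIFNRs and 23.2 to 29.8 CPM in wild-type kidneys, with log2 folds of 0.54 ± 0.07 and 0.46 ± 0.07. Hlcs, the ligase that attaches biotin to carboxylases, rose by 0.69 ± 0.10 in both comparisons. Mrps6, a protein of the small mitochondrial ribosomal subunit, rose by 0.66 ± 0.12 and 0.47 ± 0.12. Its exons overlap Slc5a3 or Gm49711 on the same strand over up to 19.9% of their bases, and its call in Dp16 2xIFNRs was lost without Dp16 2xIFNRs 1 or 5 or wild-type 3, 4 or 6 (adjusted p 0.0504 to 0.0722). The Mrps6 call was also lost without a sex term, with adjusted p up to 0.14 over all alternatives. Ttc3, a ubiquitin ligase of Akt, rose by 0.37 ± 0.08 and 0.54 ± 0.08. Pigp, of the enzyme that starts GPI anchor synthesis, rose in Dp16 (0.52 ± 0.11, adjusted p 0.00893) and did not pass in Dp16 2xIFNRs (0.34 ± 0.11, adjusted p 0.0848), where it passed without wild-type 1 (adjusted p 0.0265), and the difference between the duplication groups did not pass (adjusted p 0.85). Pigp and Ttc3 share 326 exonic bases on opposite strands, and the strand setting of the counting is not given in the sources used here. Dnajc28, of the DnaJ co-chaperone family, had 22.4, 25.9 and 30.6 CPM (lowest, median and highest) in Dp16, 24.2, 28.9 and 31.8 CPM in Dp16 2xIFNRs and 17.3, 20.6 and 24.6 CPM in wild-type kidneys. Both duplication groups overlapped wild-type at its upper end. It rose by 0.32 ± 0.09 (adjusted p 0.0368) and 0.45 ± 0.09 (adjusted p 0.00442), and the call in Dp16 was lost without Dp16 1, 2, 5 or 6 or wild-type 1, 3, 5 or 6 (adjusted p 0.069 to 0.087). This call was also lost without a sex term and with the 2 groups alone, with adjusted p up to 0.13 over all alternatives.

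The other genes included the one nearest the receptor cluster. Tmem50b, a membrane protein of the endoplasmic reticulum and Golgi, starts 8.9 kb beyond the cluster and had 56.5, 63.8 and 87.1 CPM (lowest, median and highest) in Dp16, 56.0, 60.2 and 76.3 CPM in Dp16 2xIFNRs and 41.7, 45.0 and 51.2 CPM in wild-type kidneys. The duplication groups lay wholly above wild-type, with log2 folds of 0.55 ± 0.09 (adjusted p 0.00102) and 0.47 ± 0.09 (adjusted p 0.00299). Itsn1, a scaffold of endocytosis, rose by 0.51 ± 0.09 and 0.56 ± 0.09, and C2cd2, a C2 domain protein, by 0.43 ± 0.08 and 0.49 ± 0.08. Sh3bgr, an SH3 domain-binding protein known from muscle, did not pass, at 0.66 ± 0.25 (adjusted p 0.15) and 0.50 ± 0.25 (adjusted p 0.30). Lca5l, related to the ciliary protein lebercilin, was at -0.03 ± 0.37 and 0.14 ± 0.37. Pcp4, a calmodulin-binding peptide of neurons, was at 0.28 ± 0.30 and -0.44 ± 0.31, and another annotated gene covers 23.7% of its exonic bases on the same strand. Dscam, a neuronal adhesion molecule, had 5 counts in Dp16, 6 in Dp16 2xIFNRs and 6 in wild-type kidneys.

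The duplication groups, which differ in receptor copy number, showed no called difference in the distal genes. In Dp16 2xIFNRs against Dp16 kidneys 0 of the 28 genes passed in edgeR, in DESeq2 or in limma, where 0.0% of all genes were higher and 0.0171% lower by edgeR. By edgeR the unadjusted p was under 0.05 for 1 of the 28 genes, Pcp4 (-0.73 ± 0.31, adjusted p 0.85), and for 827 of all 17575 genes. The 6 genes within 200 kb of the cluster (Tmem50b, Dnajc28, Son, Donson, Cryzl1 and Itsn1) had log2 differences of -0.25 to 0.13. Of the 4 receptor genes 3 were lower by the test, namely Ifnar2 (-0.60 ± 0.05, adjusted p 7.50e-06), Il10rb (-0.62 ± 0.07, adjusted p 2.24e-04) and Ifngr2 (-0.63 ± 0.07, adjusted p 1.87e-04). Ifnar1 did not pass (-0.42 ± 0.08, adjusted p 0.11), though its copy number differs too. A miss in this comparison therefore does not show an equal level. The narrowest intervals were those of Hmgn1, from -0.16 to 0.03, and Tmprss2, from -0.03 to 0.18, both of which leave out a change of 3:2 in either direction. That of Tmem50b ran from -0.25 to 0.10 and that of Donson from -0.75 to 0.26. By distance from the cluster, the median log2 fold of both groups together was 0.45 in the 6 genes under 200 kb, 0.57 in 3 from 200 to 1000 kb, 0.59 in 8 from 1000 to 3000 kb and 0.49 in 11 beyond.

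Sex separated a few of the distal genes far more than genotype did. Between males and females 3 of the 28 genes were higher in males and 13 lower, against 19.0% and 19.7% of all genes, so the share higher lay under the background and the share lower above it. Without wild-type 5 the counts were 3 and 10. The shares of all genes in that fit are not given here, so these counts cannot be set against a background. Only Cbr1, Cbr3, Setd4, Clic6, Itsn1, Pigp and Igsf5 passed in every alternative. Cbr1 had 99.1, 70.3 and 76.4 CPM in Dp16 males and 689, 716 and 701 CPM in Dp16 females. In Dp16 2xIFNRs it had 84.6, 80.3 and 77.1 CPM in males and 525, 469 and 552 CPM in females, and in wild-type animals 43.6, 43.4 and 40.1 CPM in males and 519, 455 and 332 CPM in females. Every male of every group lay below every female, as in 3.45% of all tested genes, and the lowest female value was over 3 times the highest male value. Among males all animals with the duplication lay above wild-type, and among females the Dp16 animals did while Dp16 2xIFNRs overlapped wild-type. Over the 3 groups the log2 difference was -3.04 ± 0.11, or 0.121-fold in males (adjusted p 1.15e-14).

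Setd4, which starts head to head with Cbr1, 1790 bases from it in GENCODE, was also lower in every male than in every female. It had 0.537, 0.366 and 0.836 CPM in Dp16 males and 3.26, 4.68 and 2.56 CPM in Dp16 females. In Dp16 2xIFNRs animals it had 1.46, 0.507 and 1.02 CPM in males and 2.61, 2.17 and 2.04 CPM in females, and in wild-type animals 0.389, 0.552 and 0.432 CPM in males and 2.82, 2.28 and 2.45 CPM in females. The log2 difference was -2.05 ± 0.24 (adjusted p 1.21e-06). No gene of the 28 had every male above every female, against 5.96% of all genes. Cbr3, 72.7 kb beyond Cbr1, was lower in males within each group, by -1.83 ± 0.17 (adjusted p 4.65e-08), and males with the duplication overlapped wild-type females. Clic6 had 0.154, 0.694 and 0.465 CPM in Dp16 males and 0.574, 3.88 and 1.04 CPM in Dp16 females. In Dp16 2xIFNRs animals it had 0.767, 0.482 and 0.539 CPM in males and 4.79, 1.89 and 3.05 CPM in females, and in wild-type animals 0.352, 0.313 and 0.308 CPM in males and 3.22, 8.59 and 3.94 CPM in females. The sexes overlapped in Dp16 only, and the log2 difference over all groups was -2.82 ± 0.40 (adjusted p 1.08e-05). The highest Clic6 value was in wild-type 5, the library with the adrenal markers, and without it the difference was -2.60 and still passed.

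**Figure D4:**
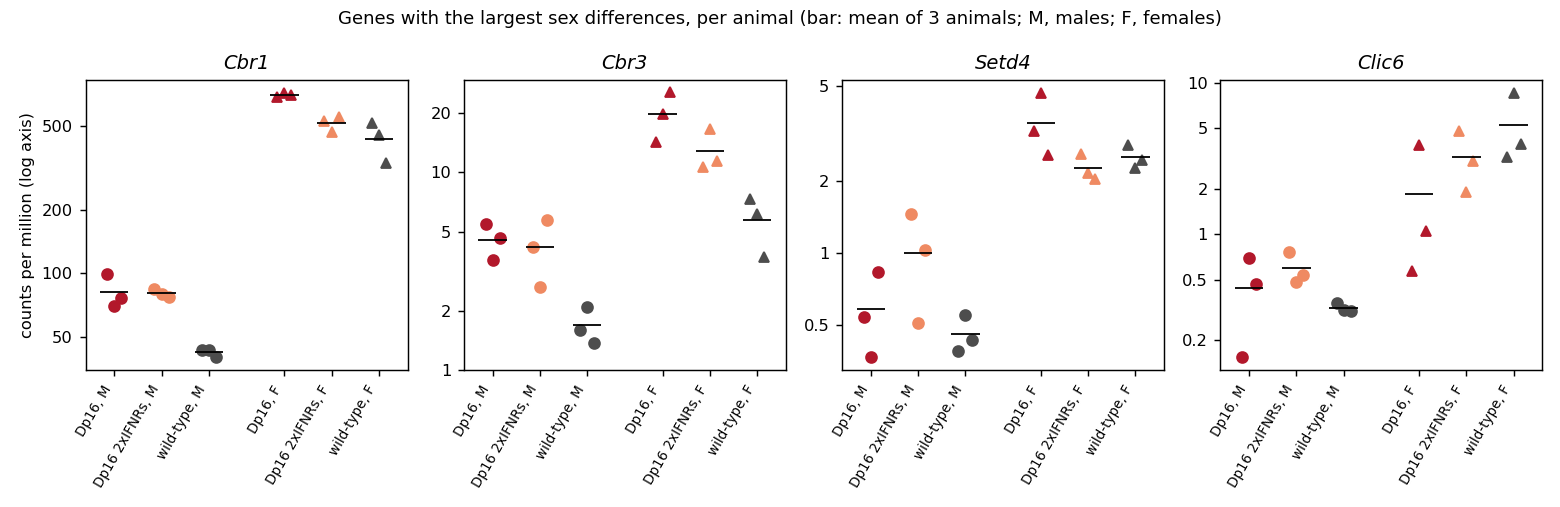
CPM on a log axis of Cbr1, Cbr3, Setd4 and Clic6 in each animal, males (circles) left and females (triangles) right, with Dp16, Dp16 2xIFNRs and wild-type in that order; bars are means of 3 animals. Cbr1 lies at 40.1 to 99.1 CPM in males and 332 to 716 CPM in females.

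Smaller log2 differences that passed in every alternative were those of Igsf5, higher in males at 0.30 ± 0.07, and of Itsn1 and Pigp, lower in males at -0.35 ± 0.07 and -0.41 ± 0.09. Markers of some cell types passed by sex too, with 3 of 5 proximal tubule markers higher and 1 lower in males. The 2 loop of Henle, 2 distal tubule, 3 podocyte and 3 endothelium markers were all lower in males, against 1 of 4 collecting duct markers. Lower too were 2 of 3 tested smooth muscle and nerve, 1 of 6 fat and 1 of 9 lymphocyte markers. None of 9 macrophage, 3 neutrophil and 2 tested adrenal markers passed. Of all genes 19.0% were higher and 19.7% lower in males. The part of these markers in the sex differences was not tested. The interaction of sex and genotype passed for 0 of the 28 genes in either group by edgeR and by DESeq2. By edgeR 0.0114% and 0.00569% of all genes passed in Dp16 (higher and lower) and 0.0% and 0.00569% in Dp16 2xIFNRs. The unadjusted p was under 0.05 for 1 of the 28 in Dp16 and 2 in Dp16 2xIFNRs, against 1380 and 621 of all 17575 genes. In Cbr1 the Dp16 2xIFNRs interaction, the log2 fold in males minus that in females, was 0.69 ± 0.19 (adjusted p 0.71), and it passed once the filter on low counts was left out, where the calls over all genes grew to 0.141% higher and 0.0589% lower of 30553. Its log2 fold over wild-type was 0.93 ± 0.14 in Dp16 2xIFNRs males and 0.24 ± 0.13 in Dp16 2xIFNRs females, beside 0.95 ± 0.14 in Dp16 males and 0.69 ± 0.13 in Dp16 females. These folds within 1 sex set 3 animals against 3, but came from 1 fit of all 18 libraries by group and sex, with a shared spread. In that fit the median log2 fold of the 28 genes was 0.49 in Dp16 males and 0.51 in Dp16 females. It was 0.53 in Dp16 2xIFNRs males and 0.51 in Dp16 2xIFNRs females.

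Between genotypes the shares of partner genes that passed the test were not above those of all genes. Of 142 listed genes in 17 lists 135 were tested, and 2.22% of the 135 passed in Dp16 (2 higher, 1 lower) and 3.7% in Dp16 2xIFNRs (3 higher, 2 lower), with a median log2 fold of -0.02 in each. Of all 17575 genes 4.23% and 4.79% passed in either direction. With both groups together 4.44% of the partners passed (2 higher, 4 lower), against 7.38% of all genes. None of the 30 other mitochondrial small ribosomal subunit genes tested with Mrps6, the 14 speckle and splicing genes tested with Son, the 7 proteasome assembly genes tested with Psmg1, the 6 GPI genes tested with Pigp or the 4 channel genes tested with Kcne1 passed with both groups together. Those that passed there were Tmprss6, a hepatic protease of the Tmprss2 family that regulates hepcidin (1.28 ± 0.29), Kcnj5, a partner of Kcnj6 (0.78 ± 0.17), Pccb, a subunit of the biotin enzyme propionyl-CoA carboxylase (-0.31 ± 0.05), Dcxr, a carbonyl reductase of xylulose (-0.29 ± 0.06), Hmgn5 (-0.24 ± 0.07) and Hat1, a histone acetyltransferase (-0.19 ± 0.06). Pccb averaged 308 ± 34 CPM in Dp16, 293 ± 24 CPM in Dp16 2xIFNRs and 370 ± 25 CPM in wild-type kidneys (SD, n = 6 each). Cbr2, another carbonyl reductase, passed in Dp16 only (0.64 ± 0.17) and Pkp2, a plakophilin of desmosomes, in Dp16 2xIFNRs only (0.25 ± 0.06), and neither difference between the duplication groups passed. Between males and females 45.2% of the 135 partners passed (43 higher, 18 lower in males), against 38.8% of all genes in either direction.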

How the data were processed

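Strand-specific libraries of polyA RNA were read as pairs of 150 bases, per the labels' protocols. HISAT2 2.1.0, HTSeq 0.6.1, SAMtools 1.5, FastQC 0.11.5 and bcl2fastq are named, with the build GRCm38, per the submitters' processing notes; the strand setting of the counting is not given in the sources used here. The authors deposited raw counts per gene and RPKM values for the same 55385 genes. RPKM was used for levels between genes and as an alternative. Positions came from GENCODE M21 and windows before gene starts from RefSeq (GRCm38.p6).

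Counts were tested in edgeR 4.0.16 (R 4.3.3) by its quasi-likelihood test, with 1 model of the 18 libraries that had terms for sex and group, TMM scaling and a filter by group (minimum count 10, total 15) that left 17575 genes. CPM values use the TMM-scaled library sizes. P-values were two-sided and adjusted over all genes by Benjamini-Hochberg, and the SE is the log2 fold over the square root of F. The labels' descriptions hold a number that 11 of the 18 animals share with an animal of another group, with no stated meaning. Nothing in the labels says that animals came from separate litters, so p-values measure the spread between these animals. The fit was also run on counts simulated from means and spreads fitted to these data, which cannot check the model against the real counts. Alternatives were RLE size factors, other filters, no sex term, age, DESeq2 1.42.0, limma 3.58.1 on RPKM (pseudocount 0.1) or with the description number as a block, a replicate block, 2 groups alone and each library left out. Contrasts within 1 sex came from 1 fit of all 18 libraries by group and sex, and were chosen after seeing the data. All 32 genes are named; values by animal, or the lowest, median and highest of each group, are given for the 3 largest and 3 smallest called folds, the 3 highest genes not called, the 3 of smallest p between sexes and the 4 nearest the receptor cluster. Up to 3 called partners per list and comparison are given by their folds. Igsf5, Tmprss2, Hmgn1 and Psmg1 fall outside these choices, and their values were added after they had been seen. The genes, lists and motifs were chosen with earlier results of these data known.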

Additional observations from a re-analysis of the deposited data

Results flagged for a closer look

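In 9 of 84 gene and group combinations of 6 animals, 1 animal stood far from the nearest other relative to the range of its group. The cutoff marks about 1 in 20 groups of independent animals drawn from 1 spread. Each group here mixed 3 males and 3 females, and the combinations shared animals. The count of 9 can therefore not be read as more than chance. The highest animal stood apart for Itsn1 in Dp16 4 (42.8 CPM), Tmprss2 in Dp16 4 (214.9 CPM), Psmg1 in Dp16 2 (42.5 CPM), Sh3bgr in Dp16 2 (2.46 CPM), Pcp4 in Dp16 2 (1.89 CPM) and Clic6 in Dp16 3 (3.88 CPM). It also did so for Chaf1b in Dp16 2xIFNRs 5 (5.16 CPM) and Sh3bgr in wild-type 2 (1.43 CPM), and the lowest animal for Ripk4 in wild-type 3 (16.1 CPM).

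In Dp16 2xIFNRs kidneys 2 genes of low level moved in opposite directions in every animal of each sex. The share of all genes that did so is not given here, so this count cannot be read as a result about these genes. Clic6 had a median log2 ratio to same-sex wild-type animals of 0.59 in males and -0.76 in females. Lca5l had -0.26 in males and 0.62 in females. By edgeR the interaction of sex and genotype was 1.57 ± 0.87 for Clic6 and -1.22 ± 0.71 for Lca5l (adjusted p 1.0 for both), so neither difference passed.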

How the results depend on the processing

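Of the genes that rose, 12 of 21 in Dp16, 15 of 21 in Dp16 2xIFNRs and 18 of 22 in both groups together passed under every alternative run, and 0 changed direction. The genes called in Dp16 were 12 without a sex term. Within 1 sex, from the fit of all 18 libraries by group and sex, 8 were called in Dp16 females and 13 in Dp16 males. In Dp16 2xIFNRs these counts were 6 in females and 13 in males. The share of all genes called within each sex is not given here, so these counts cannot be compared between the sexes. The median log2 folds were 0.51 in females and 0.49 in males in Dp16, and 0.51 and 0.53 in Dp16 2xIFNRs. With 1 library left out the counts were 18 to 22 in Dp16, 19 to 21 in Dp16 2xIFNRs, 22 to 23 together, 0 between the duplication groups and 12 to 17 between sexes. For these fits the shares of all genes are not given here, so the counts cannot be set against a background. Chaf1b in Dp16 was lost without Dp16 1, 2, 3, 5 or 6, Dp16 2xIFNRs 1, 3, 4 or 6, or wild-type 1, 2, 3, 4 or 6 (adjusted p 0.052 to 0.118). DESeq2 called 23, 21, 0 and 16 in Dp16, Dp16 2xIFNRs, between them and between sexes, against 7.03%, 7.32%, 0.0228% and 40.8% of all genes. Sample numbers did not pair the animals (correlations of deviations -0.0554 to 0.218); a replicate block gave 23, 21, 0 and 10, against 5.18%, 5.38%, 0.0171% and 31.3% of all genes. The description number as a random block gave 20, 21, 0 and 14, against 4.39%, 5.39%, 0.0171% and 37.6%; it lost Chaf1b in Dp16 and called Donson with both groups together. Between sexes, limma on RPKM moved the median of all genes to -0.13, and Hmgn1 turned from 0.03 to -0.10 (adjusted p 0.0199). Without the filter 1 interaction of 31 genes passed (Cbr1 in Dp16 2xIFNRs), where 61 of 30553 genes passed, against 1 of 17575 with it. The cause of these changes was not tested. The 6 tested genes of lowest level had the widest intervals, and the 4 under the filter gave counts only.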

Other observations

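Gm5678 (chr16:93628097-93630451), a gene between Cbr1 and Cbr3 that was not among the 32, had 207 counts in Dp16, 240 in Dp16 2xIFNRs and 3 in wild-type kidneys, the last in 1 of 6 libraries. It had counts in all 6 libraries of each duplication group. The ratio of its CPM to wild-type was 75.7 in Dp16 (95% counting interval 25.5 to 369.9) and 83.6 in Dp16 2xIFNRs (28.2 to 408.1), which covers counting error only. Dop1b, the next neighbour past Cbr3, averaged 19.6 CPM in Dp16, 20.6 CPM in Dp16 2xIFNRs and 14.0 CPM in wild-type kidneys and rose by 0.50 ± 0.09 and 0.56 ± 0.09 on the log2 scale (edgeR, adjusted p 0.00402 and 0.00162).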
